A study of Mus musculus with 6 samples.

Results

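The growth hormone receptor pathway of hepatocytes was followed at the RNA level through 10 genes: the receptors *Ghr* and *Prlr*, the kinase gene *Jak2*, the transcription factor genes *Stat5a* and *Stat5b*, the feedback inhibitor genes *Socs1*, *Socs2*, *Socs3* and *Cish*, and the repressor gene *Bcl6*. These genes were chosen by name, out of 55487 gene rows, and all 10 were found by their Ensembl identifiers. Of the 10 genes, 9 passed the filter on low counts and were tested among 12741 genes. *Socs1* did not pass it. The cells were hepatocytes, which make up most of the liver's mass and are the main liver target of growth hormone, from adult mice of 6 to 8 weeks. One genotype was wild type (WT). The other carried both copies of AEG-1-C75S, a form of the endoplasmic reticulum protein AEG-1 (gene *Mtdh*) in which the cysteine that is palmitoylated is replaced by serine. Both genotypes came from heterozygous parents, RNA was taken 48 h after isolation, and each genotype has 3 libraries, all with the treatment label Control. The labels give neither the sex of the mice nor the medium, so whether growth hormone was present is not known, and they do not tie a library to a mouse. The p-values below therefore measure the spread between these libraries, which may be technical.

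Growth hormone binds a receptor dimer at the cell surface, the receptor-bound kinase JAK2 phosphorylates the receptor tail, and the transcription factors STAT5A and STAT5B dock there, are phosphorylated and enter the nucleus. In the liver they drive *Igf1* and a large set of sex-biased genes, because males release the hormone in pulses and females more evenly. The same STAT5 proteins switch on *Socs2* and *Cish*, whose products bind the activated receptor and end the signal, and they lower *Bcl6*, which encodes a repressor that occupies many STAT5 sites.

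STAT5 dimers recognise a palindromic core, TTCNNNGAA, which reads the same on both strands. This core was searched in the RefSeq promoters of GRCm38.p6, each 300 bases long from 250 before to 50 after a transcription start. Promoters were found for 9 of the 10 genes, *Socs2* being the gene with none, and in 15 promoters of these 9 genes the core occurred in 5, belonging to *Cish*, *Bcl6*, *Prlr* and *Socs3*. Of all 32851 promoters of that length, 8.3% held it, and 0.457% held more than 1 match. Among the textbook STAT5 target genes examined below, 2 of 14 promoters held it, belonging to 1 of 9 genes. A known target can thus lack the core in this stretch. The stretches around the matches in the members are shown because they are the letters through which STAT5 could act on these genes. The matched cores are in capitals, and each stretch reads 5′ to 3′ on the strand of its gene.
Cish, chr9:107296647-107296690, plus strand: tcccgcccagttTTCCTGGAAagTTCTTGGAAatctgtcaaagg
Bcl6, downstream start, chr16:23981351-23981463, minus strand: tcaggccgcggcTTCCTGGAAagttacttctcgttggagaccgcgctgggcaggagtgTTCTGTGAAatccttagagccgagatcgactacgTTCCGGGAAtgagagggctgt
Bcl6, upstream start, chr16:23988950-23988982, minus strand: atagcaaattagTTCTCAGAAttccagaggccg
Prlr, chr15:10223784-10223816, plus strand: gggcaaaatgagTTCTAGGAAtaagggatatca
Socs3, chr11:117969500-117969532, minus strand: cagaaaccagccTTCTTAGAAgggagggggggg
*Cish* carried 2 cores next to each other, starting at bases 1 and 12 of its RefSeq transcript. The downstream start of *Bcl6* carried 3. These are matches of letters only, and binding was not measured in this study.

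The libraries held 16944723 to 21044292 gene counts, C75S replicate 1 being the shallowest. Levels are given as CPM (counts in proportion to the library size, which was scaled by TMM), and 3 counts corresponded to 0.142 to 0.172 CPM. All 10 hepatocyte markers on the fixed list were tested, with *Alb* between 55643 and 70067 CPM, so the labelled cell type had its markers. Over all genes, 222 were higher and 174 lower in C75S at an adjusted p-value under 0.05 in edgeR's quasi-likelihood test, and the median log2 fold change of all tested genes was -0.003. These counts fell to 129 higher and 72 lower without WT replicate 2, to 154 and 99 without C75S replicate 1 and to 151 and 95 without WT replicate 3, and with no filter they were 290 and 283.

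*Ghr*, *Stat5b* and *Jak2* were the most abundant members per length, and *Prlr* lay below the feedback genes *Cish*, *Socs2* and *Socs3*. On the scale of TPM (counts divided by the union of the exons of a gene, then scaled to the same total in each library), the means over the 6 libraries ran in the order *Ghr* at 42.2, *Stat5b* at 32.4, *Jak2* at 22.96, *Bcl6* at 12.7, *Stat5a* at 10.4, *Cish* at 6.34, *Socs2* at 5.46, *Socs3* at 3.00, *Prlr* at 1.75 and *Socs1* at 0.063 TPM. *Ghr* stood above 75.7% of the tested genes in this measure and *Prlr* above 13.9%. The median tested gene had 15.4 TPM. The ranges over the 6 libraries overlapped for 2 pairs of neighbours in this order, *Bcl6* with *Stat5a* and *Cish* with *Socs2*. The other neighbours with counts above the floor were separated in all libraries. With the longest transcript in place of the exon union, *Socs2* at 9.93 TPM moved above *Cish* at 7.01 TPM, and *Ghr* rose to 74.0 TPM.

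**Figure D1:**
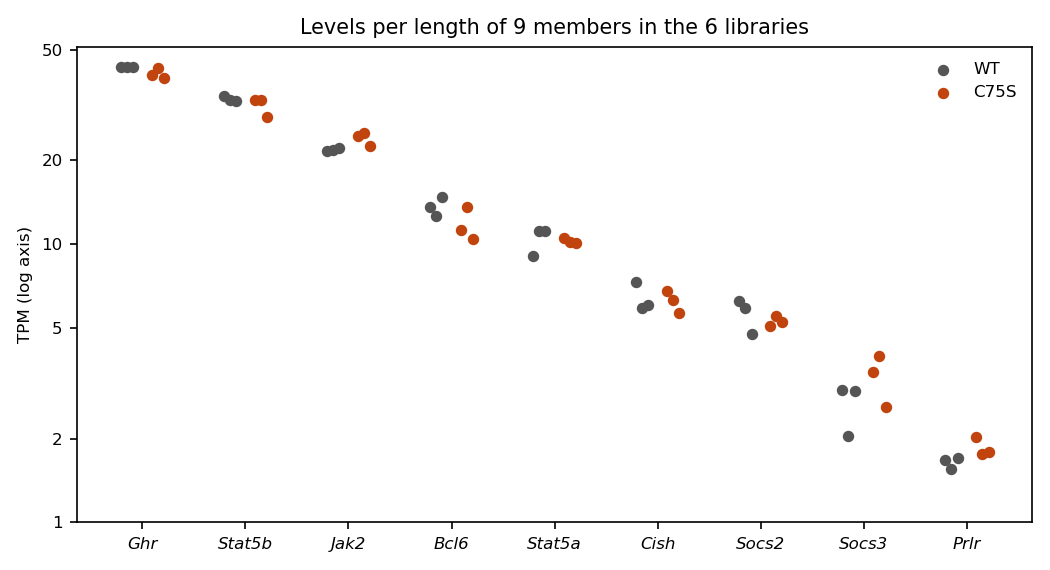
Levels per length of 9 members in TPM (vertical log axis), 1 point per library, WT in grey and C75S in orange, ordered by the mean over 6 libraries. *Ghr*, at 39.6 to 43.3 TPM, is the highest and *Prlr*, at 1.56 to 2.02 TPM, the lowest of those shown. *Socs1*, at 0 to 0.181 TPM, is left out.

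The pair of receptors differed widely in level and shifted slightly in opposite directions between the genotypes, neither shift passing the test. *Ghr* (ENSMUSG00000055737, chromosome 15, 3317760 to 3583492 on the minus strand of GRCm38, protein coding) encodes the receptor whose expression makes the liver the main target of growth hormone. Its level was 131.4, 132 and 133 CPM in the WT libraries and 120, 131.1 and 125 CPM in the C75S libraries, from 2097 to 2768 counts. Every C75S library lay below every WT library, but C75S replicate 2 by only a small margin. C75S minus WT came to -0.08 on the log2 scale (SE 0.05, edgeR adjusted p = 0.549), and its 95% interval, as a fold, ran from 0.882 to 1.02.

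*Prlr* (ENSMUSG00000005268, chromosome 15, 10177238 to 10349180 on the plus strand, protein coding) encodes the prolactin receptor, which also signals through JAK2 and STAT5 and is higher in female than in male mouse liver. It was measured at 8.64, 8.09 and 8.88 CPM in WT and at 10.2, 9.06 and 9.52 CPM in C75S, from 166 to 191 counts. All C75S libraries lay above all WT libraries. In log2 terms the shift was 0.16 (SE 0.13, edgeR adjusted p = 0.633), with a 95% interval from 0.936-fold to 1.34-fold. Per length, *Ghr* exceeded *Prlr* by 26.3 ± 1.22 times in WT and 22.3 ± 2.22 times in C75S (mean of library ratios ± SD, n = 3 each). This ratio was formed after the values had been seen and was not tested. Its size depends on the length used, the means being 74.0 and 2.20 TPM with the longest transcript. Both genes lie on the chromosome of *Mtdh* (34082694 to 34145624), the gene that carries the mutation. Each has several annotated coding transcripts, 5 for *Ghr* and 7 for *Prlr*, which gene counts do not separate. Soluble and membrane forms of the receptors were therefore read together.

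The kinase gene *Jak2* (ENSMUSG00000024789, chromosome 19, 29251828 to 29313080 on the plus strand) was measured at 36.5, 37.1 and 37.8 CPM in WT and at 40.4, 42.5 and 39.6 CPM in C75S. The C75S libraries were all higher than the WT libraries. C75S exceeded WT by 0.14 on the log2 scale (SE 0.07, edgeR adjusted p = 0.383, unadjusted p = 0.0526), with an interval from 0.999-fold to 1.21-fold. *Jak2* also had a small spread within genotypes, with a coefficient of variation of 2.94% in CPM. Counting alone, at 703 to 895 counts a library, gives 3.59%.

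*Stat5a* and *Stat5b* are neighbouring genes on chromosome 11 that encode closely related STAT5 proteins, of which STAT5B is the main form in liver. *Stat5b* (ENSMUSG00000020919, 100780731 to 100850724 on the minus strand) was measured at 63.5, 61.7 and 61.8 CPM in WT and at 59.9, 61.3 and 55.1 CPM in C75S. Its libraries did not overlap between the genotypes, C75S being lower, and C75S replicate 3 was the lowest. The log2 fold change was -0.08 (SE 0.06, edgeR adjusted p = 0.591, 95% interval 0.866-fold to 1.03-fold).

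*Stat5a* (ENSMUSG00000004043, 100859351 to 100885169 on the plus strand) was measured at 21.8, 26.999 and 26.98 CPM in WT and at 24.5, 24.4 and 25.1 CPM in C75S. WT replicate 1 was the lowest of all 6 libraries, so the genotypes overlapped. Its estimated log2 fold change was -0.03 (SE 0.09, edgeR adjusted p = 0.925), and it turned to 0.02 without WT replicate 2 or without WT replicate 3. Per length of the exon union, *Stat5b* exceeded *Stat5a* in every library, by 2.83 to 3.75 times. The size of this ratio depends on the length used, the means being 27.9 and 15.1 TPM with the longest transcript. The ratio of their counts was 2.50 ± 0.36 in WT and 2.38 ± 0.17 in C75S (SD, n = 3 each). It did not differ detectably (log2 difference -0.06, two-sided exact permutation p = 0.8, where 0.1 is the smallest that 3 against 3 allows), and without WT replicate 1 the log2 difference was 0.06. The longest transcripts of the pair share 678 bases at 92.3% identity, so a read placed in that stretch may match both.

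**Figure D2:**
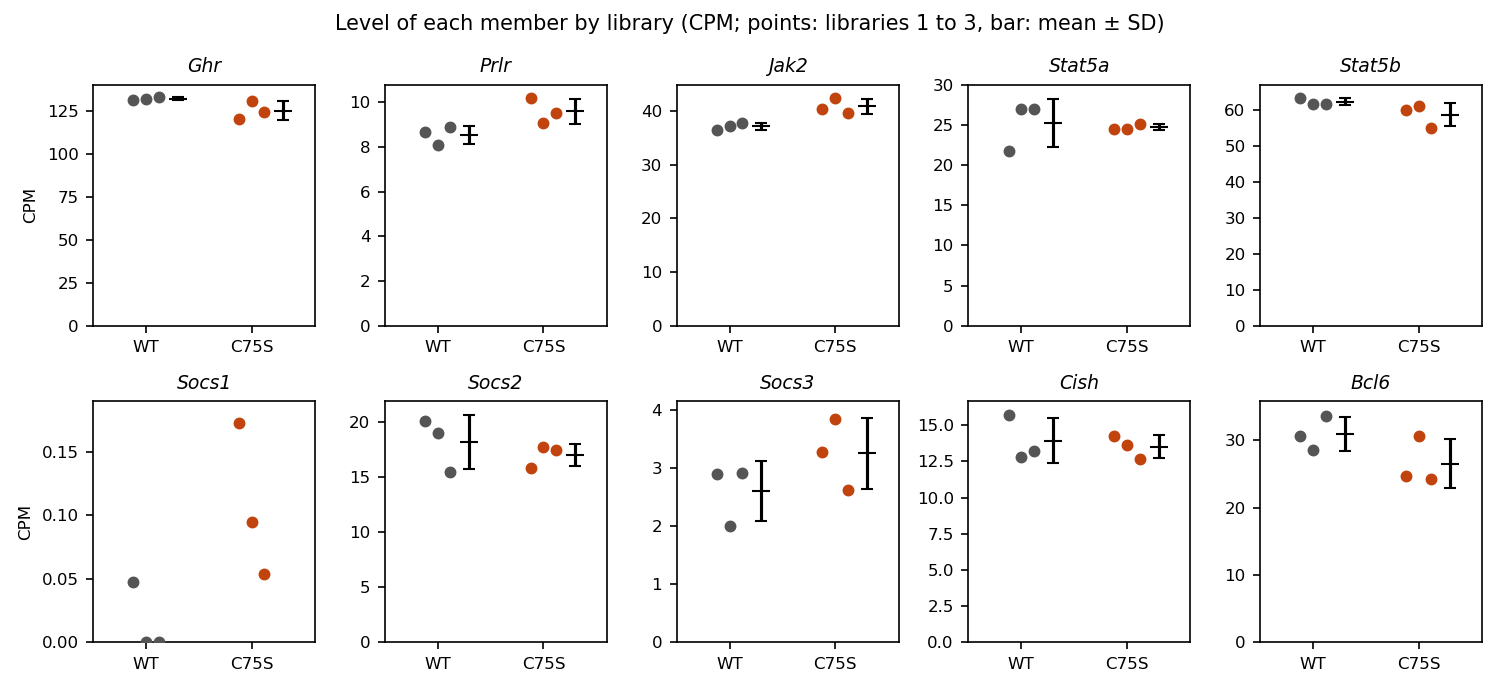
Level of each of the 10 members in CPM (vertical axes start at 0 and differ between panels), points being libraries 1 to 3 of each genotype and bars the mean ± SD of 3 libraries. *Ghr* and *Stat5b* show all C75S points below the WT points, *Prlr* and *Jak2* all above. No SD is drawn for *Socs1*, at 0 to 3 counts a library.

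Neither of the feedback genes that STAT5 switches on passed the test. *Socs2* (ENSMUSG00000020027, chromosome 10, 95385362 to 95417180) encodes the inhibitor whose loss in mice causes overgrowth through growth hormone. It was measured at 20.04, 19.0 and 15.4 CPM in WT and at 15.8, 17.7 and 17.4 CPM in C75S. WT replicate 3 was the lowest library of all and the other WT libraries the highest, so the genotypes overlapped. As a log2 fold change the difference was -0.10 (SE 0.10, edgeR adjusted p = 0.763, 95% interval 0.807-fold to 1.09-fold). A stretch of 452 bases of its longest transcript is 99.6% identical to *Gm9847*, so reads from that stretch could be placed in neither gene or in the wrong one.

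*Cish* (ENSMUSG00000032578, chromosome 9, 107296026 to 107302784), the gene with adjacent STAT5 cores printed above, encodes CIS, which binds the phosphorylated receptor. It was measured at 15.7, 12.8 and 13.2 CPM in WT and at 14.2, 13.6 and 12.7 CPM in C75S. The libraries of the genotypes were interleaved. On the log2 scale the difference was -0.04 (SE 0.11, edgeR adjusted p = 0.915, 95% interval 0.829-fold to 1.13-fold). It turned to 0.05 without WT replicate 1, and to 0.09 when strand was ignored. Its exons overlap those of *Gm17040* and *Gm17041* on the opposite strand over 740 bases.

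*Socs3* and *Socs1* encode inhibitors of JAK kinases that cytokines such as interleukin-6 and interferon-gamma induce more strongly than growth hormone does. *Socs3* (ENSMUSG00000053113, chromosome 11, 117966079 to 117970047) was measured at 2.90, 1.998 and 2.91 CPM in WT and at 3.27, 3.84 and 2.62 CPM in C75S, from 41 to 81 counts. The genotypes overlapped. The log2 fold change was 0.32 (SE 0.23, edgeR adjusted p = 0.607), and the interval, from 0.896-fold to 1.74-fold, was the widest among the tested members. Its coefficient of variation within genotypes was 19.5%, against 13.1% from counting alone. *Socs1* (ENSMUSG00000038037, chromosome 16, 10782240 to 10785536) had 1, 0 and 0 counts in WT and 3, 2 and 1 counts in C75S. These counts lie at or under the floor of 3 counts, so a difference was not detectable at this depth and no fold is given.

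*Bcl6* (ENSMUSG00000022508, chromosome 16, 23965052 to 23988852) came nearest to the threshold among the tested members but did not pass it. It was measured at 30.7, 28.6 and 33.6 CPM in WT and at 24.6, 30.7 and 24.3 CPM in C75S. A pair of C75S libraries lay below all WT libraries, while C75S replicate 2 lay within their range. The log2 fold change was -0.22 (SE 0.09, unadjusted p = 0.0249, edgeR adjusted p = 0.263), with an unadjusted 95% interval from 0.755-fold to 0.979-fold. Over the fits that left out 1 library it ranged from -0.34 without C75S replicate 2 (edgeR adjusted p = 0.0526) to -0.16 without WT replicate 3 (0.569). The highest edgeR adjusted p-value, 0.617, came without C75S replicate 3.

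Of the 9 tested members, 0 were called at an adjusted p-value under 0.05 by edgeR's quasi-likelihood test, where 3.11% of all tested genes were called. At an unadjusted p-value under 0.05 there was 1 member, *Bcl6*, where 13.4% of all tested genes reached that level. DESeq2 also called 0 members, with 1 at an unadjusted p-value under 0.05, and limma-voom called 0 with 2 at that level, *Bcl6* and *Jak2*. The 3 C75S libraries did not overlap the 3 WT libraries in 4 members, *Prlr* and *Jak2* being higher and *Ghr* and *Stat5b* lower, where 18.0% of all tested genes showed such a separation. The median log2 fold change was -0.04 over the tested members, with 3 positive and 6 negative, beside -0.003 over all genes. A p-value that misses the threshold does not show that the levels were equal. The intervals, not adjusted for the number of genes, bounded each of *Ghr*, *Stat5b*, *Jak2* and *Stat5a* between 0.860-fold and 1.21-fold.

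**Figure D3:**
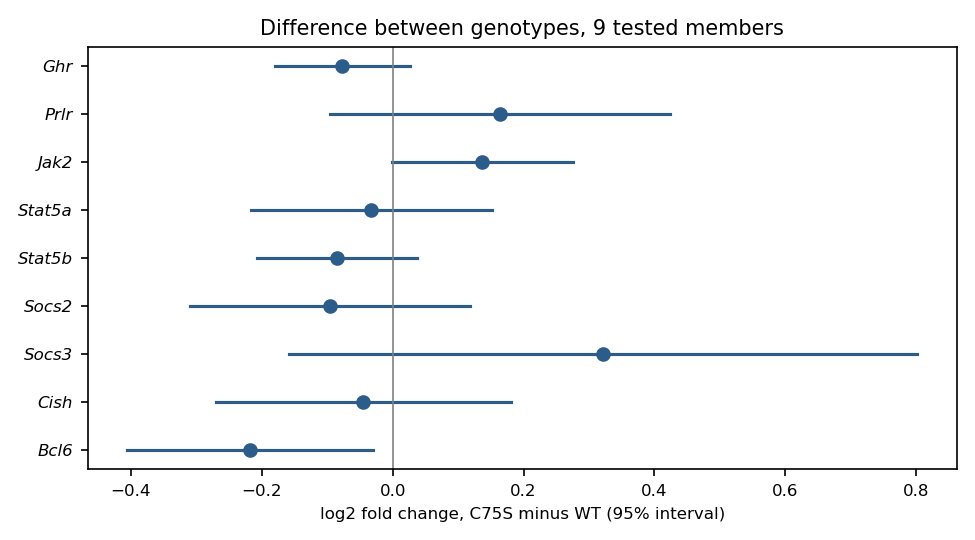
Log2 fold change of C75S against WT for the 9 tested members (points) with 95% intervals from edgeR's quasi-likelihood fit (lines, not adjusted for multiple testing). The interval of *Bcl6*, from -0.41 to -0.03, is the single interval that does not include 0, and that of *Socs3* is the widest.

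Among 12 further JAK, STAT and SOCS genes, 11 were tested and 0 were called by edgeR, with 0 at an unadjusted p-value under 0.05 and a median log2 fold change of 0.00. DESeq2 and limma-voom also called 0 of them. *Jak1*, the kinase of interleukin-6 and interferon receptors, was at 254 ± 8.70 CPM in C75S against 254 ± 2.20 CPM in WT (SD, n = 3 each), and *Stat3*, which carries the interleukin-6 signal, at 183 ± 5.30 and 175 ± 11.1 CPM. *Stat4*, a factor of lymphocytes, had 0 counts in all libraries.

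All 17 genes for phosphatases, adaptors and PIAS proteins were tested, and 1 was called, where 3.11% of all tested genes were called. *Sirpa*, a membrane glycoprotein that docks the phosphatase SHP-2, fell from 9.73, 5.85 and 8.10 CPM in WT to 4.996, 5.93 and 4.01 CPM in C75S. Its genotypes overlapped, and its log2 fold change was -0.66 (SE 0.18, edgeR adjusted p = 0.0492). That call was lost in 11 of 15 alternative fits, with the highest adjusted p-value, 0.245, without WT replicate 1. DESeq2 (0.0505) and limma-voom (0.0994) did not call it either, nor did edgeR when C75S replicate 1 (0.144), replicate 3 of C75S (0.209) or replicate 3 of WT (0.156) was left out. *Ptpn11*, which encodes SHP-2 itself, averaged 330.2 ± 10.5 CPM in C75S, beside 328 ± 6.20 CPM in WT, so the shift was 0.01 on the log2 scale (SE 0.05, edgeR adjusted p = 0.962). *Sh2b1*, an adaptor that activates JAK2, differed by 0.02 (SE 0.06, edgeR adjusted p = 0.919).

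Of 18 other receptors that signal through JAK kinases, 13 were tested and 0 were called by edgeR. Of the 13, 3 had an unadjusted p-value under 0.05, and the median log2 fold change was 0.10. Among all tested genes, edgeR called 3.11%, and 13.4% reached that unadjusted level. DESeq2 called 0 and limma-voom 1, *Il13ra1*. The most abundant, *Il6st*, which encodes the gp130 subunit shared by the interleukin-6 family, was at 318 ± 7.58 CPM in C75S against 345 ± 15.95 CPM in WT (log2 fold change -0.12, SE 0.05, edgeR adjusted p = 0.271). *Ifngr1*, a chain of the interferon-gamma receptor, was at 149 ± 5.13 and 145 ± 5.09 CPM. *Il13ra1* and *Osmr*, receptor chains for interleukin-13 and oncostatin M, are named after their values were seen. Their log2 fold changes were 0.57 (SE 0.16, edgeR adjusted p = 0.126) and 0.43 (SE 0.14, edgeR adjusted p = 0.114). Each crossed the threshold in some alternative fits, *Il13ra1* without WT replicate 1 and *Osmr* without C75S replicate 3.

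Of 12 textbook target genes other than the members, all were tested, 2 were called and both were higher in C75S. The median log2 fold change of the list was 0.19, with 9 positive, and 7 of the 12 reached an unadjusted p-value under 0.05. The groups did not overlap in 7, of which 6 were higher. Among all tested genes, 3.11% were called, 13.4% reached that unadjusted level and 18.0% did not overlap. *Ccnd1*, which encodes the G1 cyclin D1 and responds to many mitogenic signals besides STAT5, rose from 3.47, 4.68 and 4.997 CPM in WT to 9.65, 9.87 and 7.81 CPM in C75S (log2 fold change 1.06, SE 0.16, edgeR adjusted p = 0.000228). It had been seen to rise in an earlier analysis of these libraries before it was placed on the list, and the counts above include it. *Gadd45g*, a growth arrest and stress gene, rose from 9.88, 11.8 and 11.5 CPM to 16.1, 13.8 and 17.1 CPM (log2 fold change 0.50, SE 0.11, edgeR adjusted p = 0.0144). The *Gadd45g* call was not kept when C75S replicate 1 (adjusted p = 0.0565), replicate 3 of C75S (0.0865) or replicate 1 of WT (0.0621) was left out.

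*Igf1* and *Igfals*, the hormone and the carrier protein through which liver growth hormone signalling acts on the body, fell outside the rule for naming genes and are given because they are its classical output. *Igf1* was at 204, 197 and 165 CPM in WT and at 209, 192 and 196 CPM in C75S, with WT replicate 3 the lowest library. Its log2 fold change was 0.08 (SE 0.07, edgeR adjusted p = 0.687, 95% interval 0.958-fold to 1.16-fold), and -0.01 without WT replicate 3. *Igfals* was at 18.3, 23.2 and 21.2 CPM in WT and at 25.1, 23.9 and 26.4 CPM in C75S. All C75S libraries of *Igfals* lay above all WT libraries, without passing the test (log2 fold change 0.26, SE 0.09, edgeR adjusted p = 0.146). The survival genes *Mcl1* and *Bcl2l1*, the most abundant targets on the list, had log2 fold changes of -0.004 (SE 0.05, edgeR adjusted p = 0.981) and -0.05 (SE 0.05, edgeR adjusted p = 0.722).

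**Figure D4:**
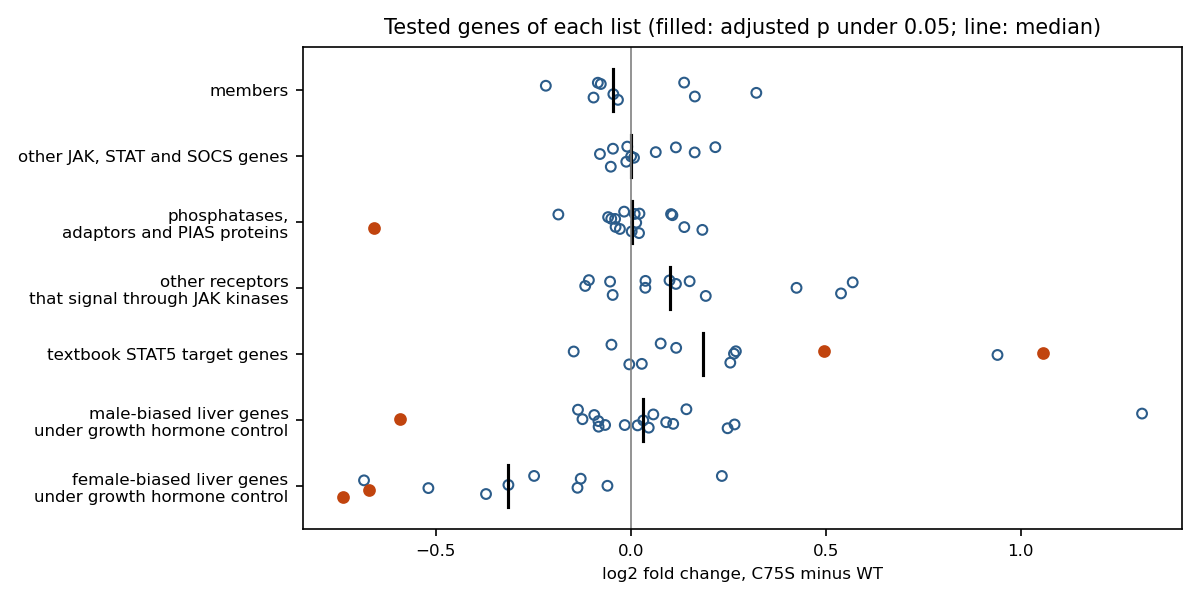
Log2 fold change of C75S against WT for each tested gene of the members and of 6 lists of related genes, filled where the adjusted p-value was under 0.05, with the median of each list as a black line. No member is filled, and the list of female-biased genes has 10 of its 11 points below 0. *Moxd1* lies off the scale at 5.17 and is counted in its median.

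Liver genes whose level depends on the male or female rhythm of growth hormone were examined next. Transcripts of the Y-linked genes *Ddx3y*, *Kdm5d*, *Uty* and *Eif2s3y* were present in all 6 libraries, with a summed level of 259 to 301 CPM, and *Xist*, the transcript of the inactive X chromosome, had 0 to 8 counts. This is the pattern of male cells, although the labels give no sex. Of the Y-linked genes, *Ddx3y* was called, at 121 ± 6.97 CPM in C75S against 100.2 ± 3.81 CPM in WT (log2 fold change 0.28, SE 0.05, edgeR adjusted p = 0.00319). *Kdm5d*, *Uty* and *Eif2s3y*, uncalled, went the other way, with log2 fold changes of -0.06, -0.10 and -0.04. The longest transcripts of *Ddx3y* and *Ddx3x* share 2461 bases at 82.4% identity.

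Among 20 male-biased genes, 19 were tested and 2 were called, 1 in each direction, where 3.11% of all tested genes were called. The median log2 fold change was 0.03. *Moxd1*, a monooxygenase-like gene, had 0, 1 and 1 counts in WT and 19, 33 and 27 counts in C75S. The summed C75S level was 43.0 times that of WT, with a 95% interval of 11.5 to 361 that covers counting error alone, and edgeR's adjusted p-value was 2.96e-05. *Serpina12*, which encodes the serpin vaspin, fell from 11.7, 9.70 and 10.04 CPM in WT to 7.52, 6.36 and 7.06 CPM in C75S (log2 fold change -0.59, SE 0.13, edgeR adjusted p = 0.0126). Its call was lost without C75S replicate 2 (adjusted p = 0.0696) or WT replicate 1 (0.0584). The most abundant genes of this list, *Mup3* and *Serpina1e*, differed by 0.11 (SE 0.05, edgeR adjusted p = 0.392) and -0.09 (SE 0.06, edgeR adjusted p = 0.54). Both belong to families of near-identical copies, so their counts are uncertain.

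Of 24 female-biased genes, 11 passed the filter, and 6 of the others had 0 counts in every library. Of the tested genes 2 were called, both lower in C75S, where 3.11% of all tested genes were called. A negative log2 fold change was found in 10 of 11, with a median of -0.31. Over all 12741 tested genes the median was -0.003, and 6259 were positive. *Fmo2*, a flavin-containing monooxygenase, fell from 17.7, 14.4 and 13.3 CPM in WT to 8.84, 10.1 and 9.52 CPM in C75S (log2 fold change -0.67, SE 0.12, edgeR adjusted p = 0.00136). *Slc22a27*, a member of the organic anion transporter family, fell from 7.98, 5.80 and 5.82 CPM to 2.699, 5.03 and 3.91 CPM (log2 fold change -0.74, SE 0.20, edgeR adjusted p = 0.0413). The longest transcripts of *Slc22a27* and *Slc22a29* are 96.8% identical over 2088 bases, so the value of this copy is uncertain. Its call was lost in limma-voom (adjusted p = 0.0646) and on leaving out C75S replicate 1 (0.222), replicate 3 of C75S (0.102) or, among the WT libraries, replicate 1 (0.203), replicate 2 (0.0724) or replicate 3 (0.0661).

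*Cyp17a1*, the steroid hydroxylase that made up most of the summed level of the female-biased list, was at 124, 165 and 167 CPM in WT and at 114, 119 and 119 CPM in C75S. It was lower in every C75S library but was not called (log2 fold change -0.37, SE 0.11, edgeR adjusted p = 0.173). DESeq2 (adjusted p = 0.00202) and limma-voom (0.0178) did call it, as did edgeR without WT replicate 1 (1.19e-05), the WT library nearest to C75S. *Tox*, a nuclear protein gene, differed by -0.13 (SE 0.10, edgeR adjusted p = 0.648).

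**Figure D5:**
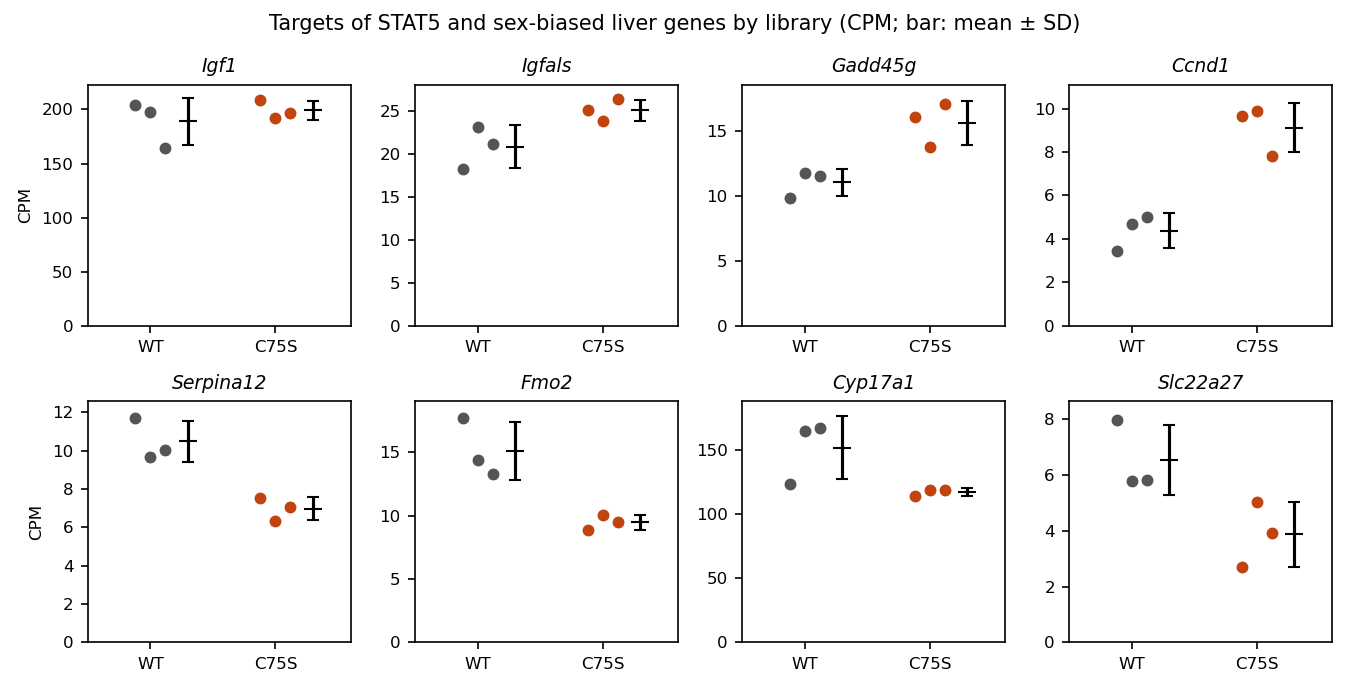
Levels in CPM (vertical axes start at 0) of STAT5 target genes and sex-biased liver genes, points being libraries 1 to 3 of each genotype and bars the mean ± SD of 3 libraries. *Igf1* overlaps between the genotypes, while *Ccnd1* is higher and *Fmo2* lower in every C75S library.

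RNA of other cell types was also measured, since *Socs1*, *Socs3* and *Bcl6* are expressed in immune cells and differing numbers of cells of a type cannot be told apart from differing RNA per cell in bulk libraries. Of 7 lymphocyte markers 0 passed the filter, and *Cd3e*, *Cd3g*, *Ms4a1* and *Nkg7* had 0 counts in all libraries. Of 8 Kupffer cell and macrophage markers 2 were tested and 0 called, by edgeR, DESeq2 and limma-voom alike and at an unadjusted p-value under 0.05. The summed level of that list was 96.1 to 140.1 CPM in C75S and 102 to 134 CPM in WT, nearly all of it *Cd68*. Of its untested markers, *Marco* had 6, 6 and 6 counts in C75S against 1, 0 and 2 in WT. *Vsig4*, at 2, 2 and 0 against 5, 3 and 0, and *Clec4f*, at 0, 0 and 0 against 4, 0 and 0, leaned the other way. *Marco*, *Vsig4* and *Clec4f* lie near the floor and are named after their counts were seen. Endothelial markers summed to 31.0 to 41.5 CPM in C75S and 29.6 to 40.0 CPM in WT. Of these markers 5 of 6 were tested and 0 called, with 2 at an unadjusted p-value under 0.05 (13.4% of all tested genes). DESeq2 and limma-voom called 0 of them as well. Most of that sum was *Stab2*, a scavenger receptor, at 24.9 ± 4.88 CPM in C75S and 26.4 ± 5.75 in WT. The other 4 tested markers had positive log2 fold changes, 0.85 for *Lyve1*, 0.70 for *Pecam1*, 0.69 for *Kdr* and 0.34 for *Cdh5*, and the median of the list was 0.69. In 3 of the 5 tested markers all C75S libraries lay above all WT libraries, where 18.0% of all tested genes did not overlap in either direction. These 5 markers are named after their values were seen.

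Among 5 cholangiocyte markers 4 were tested and *Krt19* was called, at 9.52 ± 1.22 CPM in C75S against 5.47 ± 0.26 CPM in WT (edgeR adjusted p = 0.00151). Over all tested genes 3.11% were called, a share that also stands beside the stellate and hepatocyte counts below. The summed level of these markers was 144 to 197 CPM in C75S and 122 to 133 CPM in WT. Most of it was *Spp1*, at 131 ± 25.8 and 91.0 ± 6.43 CPM, which edgeR did not call (adjusted p = 0.235). All C75S libraries of *Spp1* lay above all WT libraries. It was called by limma-voom, and by edgeR without C75S replicate 1 or without C75S replicate 3. *Krt7*, uncalled, had a log2 fold change of 0.44 (SE 0.51). *Sox9* went the other way, with a log2 fold change of -0.06. So did *Epcam*, which was not tested, at 0, 1 and 2 counts in C75S against 12, 3 and 4 in WT. *Epcam* and *Krt7* are named after their counts were seen. Of 6 stellate cell markers 3 were tested and *Acta2* was called, at 4.65 ± 0.30 and 2.62 ± 0.53 CPM (edgeR adjusted p = 0.0255). Leaving out C75S replicate 1 (adjusted p = 0.11), replicate 2 of C75S (0.056), or replicate 2 (0.116) or replicate 3 (0.11) of WT ended this call. The summed level of that list was 55.6 to 72.6 CPM in C75S and 69.6 to 91.4 CPM in WT, most of it *Reln*. Among the 10 tested hepatocyte markers *Cyp2e1* was called, at 114 ± 3.64 and 92.0 ± 10.5 CPM (edgeR adjusted p = 0.00908, and 0.065 without WT replicate 3). *Alb* was at 60607 ± 5471 and 67143 ± 3618 CPM (edgeR adjusted p = 0.347). The part of these markers in the values of the growth hormone pathway genes was not tested.

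The genes whose profile over the 6 libraries was nearest to that of a member were sought among 9394 genes of at least 5 CPM, by the mean absolute difference in centred log2 CPM. For *Ghr* these were *Maco1*, *Mavs* and *Sil1*, at differences of 0.01 each. For *Socs2* they were *Grwd1*, *Prr3* and *Cyb561d1*, at 0.03 each. For *Cish* they were *Zfpl1*, *Ing5* and *Eid1*, at 0.01, 0.02 and 0.02. None of these 9 genes was called between the genotypes, with edgeR adjusted p-values from 0.538 to 0.968. They were picked for profiles close to those of uncalled members, so this outcome follows from the choice and is not a separate result.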

How the data were processed

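RNA sequencing of 6 hepatocyte libraries was analysed. Each deposited file holds whole-number read counts by Ensembl gene, and per the submitters' processing notes Trim Galore 0.6.6, STAR 2.7.9a, edgeR 3.36.0 and GRCm38 were used, with no annotation release given. Reverse-strand counts were used, which exceeded forward-strand counts 32.9 to 33.9 times, without the summary rows. Unmapped reads made up 4.37% to 5.81% and multimapping reads, which were not counted to genes, 17.98% to 18.5%. No pair of libraries agreed within counting noise (chi-square per degree of freedom at least 4.05).

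Genes were filtered with filterByExpr (minimum count 10, minimum total 15), scaled by TMM and tested with edgeR 4.0.16 in R 4.3.3 by a two-sided quasi-likelihood test across all genes, with genotype as the single term and Benjamini-Hochberg adjustment. Standard errors are the fold change divided by the square root of F. Intervals are 95% intervals from the same fit. The procedure was tested on simulated data, where the share of false calls exceeded the nominal one and most 1.2-fold changes were missed. Positions, exon lengths and copies (BLAST 2.17.0) come from GENCODE M21, and 55227 of 55487 gene rows had a length. Alternatives were DESeq2 1.42.0, limma-voom 3.58.1, other scalings and filters, unstranded counts, a replicate block and leaving out each library.

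The members and lists were chosen with earlier results of these data known. Named genes were the members, the called genes of each list and its most abundant uncalled genes (at most 2), with up to 3 nearest profiles for *Ghr*, *Socs2* and *Cish*. Other names are marked as such, as are *Cyp17a1* by abundance and *Cd68* and *Reln* by their share of a sum.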

Additional observations from a re-analysis of the deposited data

How the results depend on the processing

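The 9 tested members were uncalled under all 15 alternatives, and their direction was kept except for *Stat5a* and *Cish*. Leaving out 1 library, the log2 fold change of *Stat5a* ranged from -0.13 to 0.018 and that of *Cish* from -0.10 to 0.053, and *Cish* was at 0.0898 with unstranded counts. The log2 difference in the *Stat5b* to *Stat5a* ratio ranged from -0.12 to 0.056. The cause was not tested. With the longest transcript as length, mean levels were 74.0 TPM for *Ghr*, 27.9 for *Stat5b*, 18.6 for *Jak2*, 17.5 for *Bcl6*, 15.1 for *Stat5a*, 9.93 for *Socs2*, 7.01 for *Cish* and 2.20 for *Prlr*.

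Leaving out 1 library, the count of called genes ranged from 201 to 355, with 129 to 193 higher and 72 to 169 lower. It was lowest without WT replicate 2, and it was 253 without C75S replicate 1 and 246 without WT replicate 3. With no filter 283 genes were lower. In the fits that left out 1 library, 1 to 2 genes were called for STAT5 targets, male-biased, female-biased and cholangiocyte genes. For phosphatases and adaptors, other receptors, hepatocyte and stellate markers it was 0 to 1. DESeq2, no filter and the replicate block each called 3 female-biased genes, *Cyp17a1*, *Fmo2* and *Slc22a27*. Under RLE, upper-quartile or library-size scaling, DESeq2, limma-voom, the 1 CPM filter or unstranded counts, 0 phosphatases and adaptors were called. Of the other receptors, 1 was called with library-size scaling or limma-voom and 2 with no filter or the replicate block. The replicate block called 2 hepatocyte markers, no filter 2 stellate markers and limma-voom 2 cholangiocyte markers.

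Same-numbered libraries did not deviate together over all genes (correlations 0.01, -0.03 and 0.04). That does not show whether some genes vary by replicate number, and the labels give no pairing beyond these numbers. With the replicate block 480 genes and 0 members were called by edgeR, against 396 genes without it. In that fit *Bcl6* had an adjusted p-value of 0.272, *Il13ra1* of 0.0021 and *Cyp17a1* of 0.00124. Depth limits *Socs1*, at 0 to 3 counts a library, and *Socs3*, at 41 to 81.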
